A study of Sus scrofa with 2 samples.

Results

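The sequences described here are the long tags of a pig testis small RNA data set: all distinct sequence tags of 25 to 30 nucleotides among those the authors matched to known microRNAs (miRNAs). They were chosen by their listed length alone. The 30-day library held 6729 of them among 82288 listed tags, and the 180-day library held 2571 among 28643. Over both libraries there were 8235 distinct long tags among 93229. The tissue was whole testis from boars of the white Chinese breed Junmu-1, sexually immature at 30 days of age and mature at 180 days. Each library was a pool of 3 boars and there was 1 library per age, so there was no replicate check and no p-value, and every ratio compares these libraries only. Whole testis holds germ cells, Sertoli cells, Leydig cells, vessels and connective tissue, and fewer cells of a type cannot be told apart from less RNA per cell.

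A miRNA is cut from a hairpin precursor by the nucleases Drosha and Dicer, and small shifts in either cut give variants of different length, called isomiRs. Terminal transferases can also add A or U to the 3′ end of a mature miRNA, whatever the precursor reads there. The testis after puberty further holds piRNAs, a class of small RNAs longer than miRNAs that guard germ cells against transposons and mostly start with U. Sequences are written with T in place of U, as in the files.

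The long tags that held most reads extended a miRNA by a single base. They are shown first because such tags led both libraries. The leading tag of the 180-day library, miR-30d with T added, is given by its values only: 1925 reads at 30 days, where miR-222 came ahead of it, and 594 at 180 days. In each sequence, read 5′ to 3′, the lower-case letters are the run identical to the miRNA entry that the tag was matched to, counted from the first base of both, and the capitals are everything after it. Where the run stops short of the entry's end, the capitals also hold bases that stand in place of the entry's own.
miR-222, T added: agctacatctggctactgggtctcT
miR-222, A added: agctacatctggctactgggtctcA
miR-181a, T added: aacattcaacgctgtcggtgagttT
miR-181b, T added: aacattcattgctgtcggtgggttT
miR-30a-5p, T added: tgtaaacatcctcgactggaagctT
miR-30e-5p, T added: tgtaaacatccttgactggaagctT

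Another set shows tails of A and T that were longer than 1 base, on miRNAs whose long tags are described further on.
miR-191: caacggaatcccaaaagcagctgTT
let-7b, T tail: tgaggtagtaggttgtgtggttTTT
let-7b, A tail: tgaggtagtaggttgtgtggttAAA
miR-34c, A tail: aggcagtgtagttagctgattgcAA
miR-34c, mixed tail: aggcagtgtagttagctgattgcAT

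A further set shows an ending that recurred on unrelated miRNAs, the bases GAAC, with or without another base before them. In the miR-103 and let-7a tags the capitals replace the last 2 and 1 bases of the entry.
miR-25, GAAC: cattgcacttgtctcggtctgaGAAC
miR-25, CGAAC: cattgcacttgtctcggtctgaCGAAC
miR-92a: tattgcacttgtcccggcctgtGAAC
miR-103: agcagcattgtacagggctatCGAAC
miR-99a: aacccgtagatccgatcttgtgGAAC
miR-140*: taccacagggtagaaccacggacCGAAC
let-7a: tgaggtagtaggttgtatagtCGAAC

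The last set holds tags with neither of these endings and with most or all of their reads in the 180-day library. The miR-182 entry has 25 bases and the run covers 23 of them, so the tags of 26 and 29 nucleotides reach only 1 and 4 bases past it. The miR-1819 tag shares only its first 2 bases with the entry in an ungapped reading, so its capitals are mostly not added bases.
miR-182, shorter tag: tttggcaatggtagaactcacacTGG
miR-182, longer tag: tttggcaatggtagaactcacacTGGTGA
miR-1819: tgTGAAGTCACTGAGTCTTGATGGA

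Long tags were a small share of the miRNA-matched reads in both libraries. Of the 7525725 such reads of the 30-day library 34206 were long, or 0.455% (exact 95% interval 0.450 to 0.459%). In the 180-day library 8222 of 852209 were long, which is 0.965% (0.944 to 0.986%). The share was 2.12 times as large in the 180-day library (2.07 to 2.17). Intervals cover counting error only, since reads amplified with 15 PCR cycles and no molecular identifiers are not independent molecules. The denominator is the miRNA-matched reads, which made up at most 59.2% of the 30-day and 7.08% of the 180-day library. These limits use the smallest library totals compatible with the tags' running numbers. Against those whole-library totals the direction turned, with a ratio of 0.254 (0.248 to 0.260). With the TMM and median-of-ratios scales, which are set by the miRNAs common to both libraries, the ratio was 1.10 (1.08 to 1.13) and 1.07 (1.05 to 1.10). Most long tags were rare: 64.0% of them at 30 days and 69.0% at 180 days had 1 read, beside 55.9% and 60.9% of all listed tags. The most read tag of each library held 9.39% and 7.22% of its long reads. The 1065 long tags found in both libraries were 15.8% of the 30-day and 41.4% of the 180-day long tags, and held 72.2% and 68.9% of the long reads.

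By length, the 25-nucleotide tags led both libraries and the longest tags differed most between them. Tags of 25 nucleotides held 21015 reads at 30 days (61.4% of long reads) and 4748 at 180 days (57.7%), a ratio of 2 per miRNA-matched read (1.93 to 2.06). The 26-nucleotide tags had 8089 and 2131 reads, a ratio of 2.33 (2.22 to 2.44), and the 27-nucleotide tags 4278 and 901, a ratio of 1.86 (1.73 to 2). At 28 nucleotides there were 783 and 349 reads, a ratio of 3.94 (3.46 to 4.47). Tags of 29 nucleotides had 31 and 69 reads, a ratio of 19.7 (12.7 to 31.1), and tags of 30 nucleotides 10 and 24, a ratio of 21.2 (9.77 to 49.7). The longer miR-182 tag printed above held 28 of the 69 reads at 29 nucleotides and none of the 31. The ratio thus lay near 2 up to 27 nucleotides and was larger at 28 and above, on few reads. No listed tag had more than 6 unmatched bases, so the length of an entry limits how long a tag listed under it can be.

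The added length lay mostly at the 3′ end. A tail is here what follows the run identical to the entry, whether it lies past the entry's end or replaces its last bases; 67.7% of the 30-day and 55.9% of the 180-day long reads were identical over the whole entry. In the 30-day library 94.0% of the long reads (93.7 to 94.2%), and in the 180-day library 83.7% (82.9 to 84.5%), began at the first base of their entry. Reads that began before it made up 3.52% (3.33 to 3.72%) and 13.1% (12.4 to 13.9%). Tails of A and T only were the most common kind, with 46.0% (45.4 to 46.5%) of the 30-day and 39.2% (38.1 to 40.2%) of the 180-day long reads. Tails ending in GAAC made up 16.8% and 13.8%, and all other tails 25.1% and 24.4%. The remaining reads differed from the entry at the start or within its first 17 bases, 12% at 30 days and 22.6% at 180 days, apart from 0.132% and 0.0486% that lay inside it. Pig hairpins were not used here, so bases encoded in a precursor and bases added after cutting cannot be told apart.

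A single T was the most common tail, with 7406 reads on 19 miRNAs at 30 days and 1094 reads on 16 at 180 days. A single A had 1512 and 215 reads. Both could be read only on entries long enough for 1 added base to reach 25 nucleotides. For miR-222, which targets the cell cycle inhibitor p27 and the KIT receptor, 3213 of 4206 such reads at 30 days added T (76.4%, 75.1 to 77.7%), and 93 of 108 at 180 days (86.1%, 78.1 to 92.0%). For miR-181a the share was 97.4% of 1162 reads and 98.2% of 114, and for its relative miR-181b 85.6% of 515 and 89.7% of 39. In the miR-30 family T made up 86.6% and 84.3% for miR-30d, 79.5% and 79.7% for miR-30a-5p, and 81.9% and 77.9% for miR-30e-5p. T was thus the main added base in both libraries for each of these 6 miRNAs, and A followed it. Set against the tag that stops at the entry's last base, the extended reads were few for miR-30a-5p, 2.20 per 100 at 30 days and 3.08 at 180 days. They were many for miR-181a, 78.3 and 105 per 100, and for miR-222 there were 37.3 and 39.0.

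The GAAC ending was common among long tags and rare among those of usual length. It closed 5991 long reads at 30 days (17.5%, 17.1 to 17.9%), in 587 tags of 66 miRNAs, and 1201 at 180 days (14.6%, 13.9 to 15.4%), in 254 tags of 50 miRNAs. Among tags of 20 to 24 nucleotides it closed 0.0402% and 0.0576% of the reads. The share depended on length: 2.05% and 1.87% at 25 nucleotides, 32.7% and 26.2% at 26, 55.5% and 40.7% at 27, and 67.3% and 52.4% at 28. At 29 and 30 nucleotides it was 38.7% and 30.0% at 30 days, on 31 and 10 reads, and 2.90% and 4.17% at 180 days, on 69 and 24 reads. An ending of 4 or 5 bases past the end of an entry of 22 or 23 bases makes a tag of 26 to 28 nucleotides. The contrast with 20 to 24 nucleotides and the high shares at 26 to 28 thus follow in part from the length of this ending. Endings that differed from GAAC by 1 base, of which there are 12, held 8.03% and 6.84% of the long reads together, beside 4.61% and 4.58% of the reads of 20 to 24 nucleotides. The bare tail GAAC made up 5.92% of the long reads at 30 days, on 47 miRNAs, and 4.57% at 180 days, on 24. With a preceding base, CGAAC made up 5.53% and 4.27%, while TGAAC and AGAAC had 2.21% and 1.10% at 30 days.

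The miRNAs differed in how many of their long reads carried this ending, and the order was alike in both libraries. For miR-103, a miRNA of the pantothenate kinase introns, it closed 64.9% of the long reads at 30 days and 66.3% at 180 days. For miR-25, a member of the miR-106b cluster, the shares were 56.4% and 62.9%, and for miR-92a, which has the same seed, 46.2% and 54.4%. For miR-99a they were 52.4% and 62.9%, and for miR-140*, the other strand of the cartilage miRNA miR-140, 30.1% and 37.5%. In contrast, miR-222 had it in 0.0188% and 0%, miR-30d in 0.0968% and 0.0993%, and miR-191 in 0.123% and 0% of the long reads. The entries of miR-222 and miR-30d have 24 bases, so a single added base already makes a tag long. With tails of 4 or more bases only, GAAC closed 59.7% of 2352 and 65.2% of 210 long reads of miR-25. For miR-30d it closed 5.08% of 59 (1.06 to 14.1%) and 2.5% of 40 such reads. For miR-222 it closed 0.518% of 193 and 0% of 9, and for miR-191 0% of 28 and of 18. The long reads with the ending were also set against all reads of a miRNA. Shorter reads with the ending were counted only in that total. These shares were 4.75% and 7.51% for miR-25, 4.10% and 7.37% for miR-92a, 1.62% and 3.23% for miR-103, and 0.0898% and 0.157% for miR-99a. Over the 46 miRNAs with 1000 or more reads in each library, these shares had a Spearman rho of 0.86 between the libraries, given as a description across miRNAs, which share the protocol and the matching. Of the 46, 22 had long reads with the ending in both libraries and 14 in neither. What produced the ending was not tested.

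The first base of the long tags differed between libraries when reads were counted and not when tags were. T began 40.9% (40.4 to 41.5%) of the 30-day and 51.5% (50.4 to 52.6%) of the 180-day long reads, beside 59.0% and 59.4% for 20 to 24 nucleotides. A began 44.4% and 32.5%, C 12.2% and 11.8%, and G 2.47% and 4.23%. Of the distinct long tags, T began 46.9% (45.7 to 48.1%) and 47.1% (45.2 to 49.1%). With the most read tag of either library left out of both, the T-added tags of miR-222 and miR-30d, the read shares of T were 41.6% and 48.3%. Base 10 was A in 21.6% and 26.6% of the long reads, against 56.0% and 54.2% at 20 to 24 nucleotides. The last base was C in 34.1% and 27.0%, against 5.08% and 7.21%. Reads with 0 mismatches made up 83.0% and 73.2% of the long reads, with 1 mismatch 14.1% and 19.7%, and with 2 mismatches 2.87% and 7.15%. By unmatched bases, 33.1% and 21.4% had 1, 12.1% and 18.6% had 2, 24% and 28% had 3, 18.9% and 20.2% had 4, and 11.5% and 10.8% had 5.

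Most long tags were listed under a mammalian entry. Mammalian prefixes held 71.4% (70.9 to 71.8%) of the 30-day and 76.3% (75.4 to 77.2%) of the 180-day long reads, beside 78.2% and 78.9% at 20 to 24 nucleotides. The order turned, to 77.4% and 75.4%, with those 2 leading tags left out. Human entries were the most common, with 37.5% and 28.8%, and pig entries held 4.80% and 2.37%. Most other reads were of conserved miRNAs listed under another animal, such as the chicken entry of miR-222: 27.4% and 16.9% of the long reads had a mammalian entry under the same miRNA. Reads of miRNAs with no mammalian entry were 423 at 30 days (1.24%, 1.12 to 1.36%) and 556 at 180 days (6.76%, 6.23 to 7.33%). T began 33.1% of these at 30 days (28.6 to 37.8%) and 81.5% at 180 days (78.0 to 84.6%), and by distinct tags 59.4% and 71.4%. A single tag, the one listed under miR-1819 and printed above, was read in the 180-day library only, with 1.65% of its long reads. What these tags are was not tested.

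The miRNAs that led the long tags were seldom those that led all reads. The leading 10 by long reads shared 3 names with the leading 10 by all reads at 30 days and 2 at 180 days, let-7b in both. At 30 days the leading 10 held 63.7% of the long reads, and at 180 days 47.9%. Across miRNAs with 1000 or more reads, the long share of a miRNA's own reads ran from 0.0245 to 16.9% at 30 days (median 0.622%, 77 miRNAs) and from 0.0163 to 13.7% at 180 days (median 0.602%, 48 miRNAs).

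Of the 105 miRNAs with 20 or more long reads over both libraries, 55 were higher in the 180-day library (52.4%) and 1 was lower (0.952%), by 2-fold or more with an exact interval that excluded 1. The median log2 ratio over the 105 was 1.26, so a higher call is the usual result here. The read minimum and the floor favour higher calls, because the 30-day library has more miRNA-matched reads. Where a library had 0 reads, 3 reads were the floor, worth 0.399 RPM at 30 days and 3.52 at 180 days. A miRNA with long reads only at 180 days is always called higher once it passes the minimum. With long reads only at 30 days it can pass the minimum and still not be called lower. The split also depends on the scale. With TMM factors, which multiply every ratio by 0.520 (0.94 lower on the log2 scale), 34 were higher and 14 lower. With median-of-ratios factors, which multiply it by 0.504 (0.99 lower), the numbers were 32 and 17, and with whole-library totals, which multiply it by 0.120 (3.06 lower), they were 14 and 73.

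The single lower miRNA was miR-222. Its long tags had 5330 reads at 30 days, or 708 RPM (reads scaled to a total of 1000000 miRNA-matched reads), and 138 at 180 days, or 162 RPM. They were 4.37-fold lower in the 180-day library (3.69 to 5.22). With the most read long tag of either library left out of both, the ratio was 0.188 (0.137 to 0.252). All miR-222 reads together had a ratio of 0.281, and the long share of its reads was 16.5% at 30 days (16.1 to 16.9%) and 13.4% at 180 days (11.4 to 15.6%). Long tags of miR-25 had 336 and 259 RPM, with a ratio of 0.772 (0.670 to 0.886), and those of miR-92a 189 and 121 RPM, with a ratio of 0.640 (0.519 to 0.782). Neither reached 2-fold on this scale, but both were called lower with TMM factors, at 0.401 and 0.333, and with median-of-ratios factors, at 0.389 and 0.323. The miR-21 tags, among the 5 smallest ratios by the same rule, had 34.7 and 51.6 RPM (1.49, 1.06 to 2.06). Their direction was not stable: the ratio was 0.798 (0.464 to 1.29) without tags of 1 read, 0.774 with TMM, 0.751 with median-of-ratios factors, and 2.27 (1.14 to 4.22) with 0 mismatches.

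Several abundant miRNAs had a higher long RPM at 180 days. For miR-30d the long tags had 412 RPM at 30 days and 1182 RPM at 180 days, a 2.87-fold difference (2.67 to 3.08). For miR-103 they went from 242 to 683 RPM (2.82, 2.57 to 3.10), and for miR-140* from 192 to 479 RPM (2.49, 2.23 to 2.78). The miR-191 tags went from 108 to 479 RPM (4.42, 3.91 to 4.98) and those of miR-30e-5p from 59.1 to 271 RPM (4.58, 3.89 to 5.39). All 5 were called higher, and each turned to a ratio below 1 against the whole-library totals. With TMM factors miR-30d (1.49), miR-103 (1.47) and miR-140* (1.30) did not reach 2-fold, nor did let-7a (1.28), described next. The median-of-ratios factors gave 1.45, 1.42, 1.26 and 1.24 for these 4. In the let-7 family, which restrains proliferation in many tissues, let-7a went from 109 to 268 RPM (2.46, 2.12 to 2.86). Its relative let-7b went from 273 to 372 RPM (1.36, 1.21 to 1.53), short of 2-fold. The ratio was near 1 for another 3 abundant miRNAs. It was 1 for miR-181b, with 1588 and 180 long reads (0.853 to 1.17), 0.968 for miR-181a, with 1433 and 157 (0.815 to 1.14), and 0.947 for miR-99a, with 1082 and 116 (0.775 to 1.15). On the other scales these ratios were lower. TMM gave 0.520, 0.503 and 0.492 and median of ratios 0.505, 0.488 and 0.478, so that miR-99a was called lower with both and miR-181a with the latter. The whole-library totals gave 0.120, 0.116 and 0.113, and all 3 were called lower with them.

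The highest ratios were in miRNAs with no or few long reads at 30 days. Long tags of miR-34c, a miRNA of meiotic and later male germ cells, had 0 reads at 30 days and 279 at 180 days (327 RPM), at least 821-fold higher against a fixed floor of 3 reads, while the exact interval of the ratio begins at 663. All miR-34c reads numbered 45 at 30 days. The exact interval for 0 of 45 reaches a share of 7.87% (the 3-read floor gives 6.67%), and the long share at 180 days was 1.45% (1.28 to 1.63%). The miR-1819 tags had 0 and 137 reads (161 RPM), at least 403-fold higher by the same floor, with an exact interval that begins at 324. Long tags of miR-182, a miRNA of the miR-183 cluster known from sensory organs, had 60 and 256 reads, which is 37.7-fold higher per miRNA-matched read at 180 days (28.3 to 50.8). Those of miR-146b, an inhibitor of innate immune signalling, had 40 and 116 reads (25.6-fold, 17.7 to 37.7). The tags under miR-1274a, an entry that overlaps a lysine tRNA, went from 11.3 to 196 RPM (17.4, 13.3 to 22.8).

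A ratio of long reads mixes the level of a miRNA with how often its reads are long, so the long share of each miRNA's own reads was compared as well; this measure does not depend on the scale. Of 101 miRNAs, 33 had a 2-fold or higher share in the 180-day library (32.7%) and 1 a lower share (0.990%), by the exact interval of the odds ratio. The median log2 ratio of shares was 0.91 over the 96 miRNAs with long reads in both libraries. Of the 55 miRNAs with more long reads, 30 also had a higher share, 21 did not and 4 could not be tested.

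For miR-182 the long share went from 18.0% (14.0 to 22.6%) to 65.3% (60.4 to 70.0%), or 3.62 times. The entry that held 95% and 99.2% of these reads has 25 bases, so a read of its full length already counts as long. Of its long reads, 91.7% and 94.9% carried tails that were neither of A and T only nor ended in GAAC, such as the TGG tag printed above, which had 23 reads at 30 days and 62 at 180 days. The share of miR-191 went from 0.622% to 2.08% (3.34 times), of miR-140* from 0.508% to 1.47% (2.90 times), of let-7a from 0.105% to 0.286% (2.74 times) and of let-7b from 0.383% to 0.880% (2.30 times). For let-7b, all reads had a ratio of 0.593 while the long reads had 1.36. miR-146b went from 3.93% to 16.8% and miR-1274a from 4.68% to 18.9%. Other abundant miRNAs had larger shares at 180 days that fell short of 2-fold: miR-30d with 5.46% and 7.43%, miR-25 with 8.42% and 11.9%, miR-103 with 2.49% and 4.88%, miR-181a with 8.26% and 16%, and miR-92a with 8.88% and 13.6%. For miR-103 a ratio of 2.05 was called higher with 0 mismatches, and for miR-181a a ratio of 3.78 at 26 to 30 nucleotides. In that window miR-181b was called higher as well, at 3.04 (2.31 to 4.43) in place of 1.72. The 1 lower share was that of miR-145, a smooth muscle miRNA, with 36 long reads (0.727%) at 30 days and 5 (0.240%) at 180 days, and it was not called lower at 26 to 30 nucleotides.

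The largest long shares belonged to entries with few reads. At 30 days they were those of miR-342 (80.2%, 69.9 to 88.3%), miR-1826 (49.1%), miR-10d (43.1%), miR-92c (35.9%) and miR-1763 (35.3%). The entries of miR-342 and miR-10d have 25 bases and that of miR-1826 has 27, so their long reads need not be extended. Entries of 25 or more bases held 1.30% of all long reads at 30 days and 4.56% at 180 days. At 180 days every read listed under miR-1819, miR-1288, miR-159e and miR-975 was long, and 92.3% of those under miR-419 (83.0 to 97.5%). In an ungapped reading the most read tag of each shares only its first bases with the entry. These are 2 bases for miR-1819 and miR-975, 3 for miR-1288 and miR-419, and 1 for miR-159e. Whether these tags come from the miRNAs they are listed under was not tested. Of the long reads listed under miR-10d, 64.7% at 30 days and 80.0% at 180 days began with the first 20 bases of miR-10b. Likewise 25.6% and 38.9% of the miR-181b long reads began as miR-181d, and 30.3% and 4.79% of those of miR-100 as miR-99a. Of the miR-140* long reads 35.9% and 31.1% began with the bases of an entry named miR-140, so that this entry holds the same strand in spite of its name. Values of these names are uncertain: named by their first 20 bases, a setting chosen after seeing the data, miR-140* had a ratio of long reads of 2.68 and of long shares of 3.66, in place of 2.49 and 2.90.

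Groups of related miRNAs are described by counts, read against the 52.4% called higher and the median of 1.26 above. In the let-7 family 2 of 9 tested members were higher and none lower, with a median log2 ratio of 0.45. Of 14 listed meiotic and later germ cell miRNAs 9 had long tags and 3 were tested. These were miR-34c, miR-449a (0 and 46 long reads) and miR-449b (0 and 74), all called higher. All 3 had 0 long reads in the younger library, so the call was certain once they passed the read minimum. It cannot be read against the 52.4%, and the median of 7.77 for the 3 is set by the 3-read floor. The long share of none was called higher, on only 45, 19 and 2 reads of any length in the younger library. Of 18 listed gonadal miRNAs 7 had long tags and 2 were tested. Both were higher, and the long share was called higher for 1 of them. Long tags of miR-202-5p, known from Sertoli cells, went from 19.0 to 78.6 RPM (4.14, 3.05 to 5.57). Among 25 listed mesenchymal miRNAs, with miR-140 and miR-140* counted apart, 5 of the 10 tested were higher, with a median of 0.81. Of 13 names on the blood list 2 were tested, and both were higher. The long tags of miR-451 of red cells went from 28.6 to 204 RPM (7.15, 5.82 to 8.77) and those of miR-16 from 1.86 to 29.3 RPM (15.8, 7.89 to 32.8). The long share of both was called higher as well, with a median log2 ratio of shares of 2.19. The part of blood left in the tissue was not tested. Both tested entries that overlap structural RNA, miR-1274a and miR-1826, were higher. The only tested member of the DLK1-DIO3 region, miR-127, had 50 and 3 long reads and was not called (0.530, 0.106 to 1.64). Neither was miR-320a, whose precursor skips Drosha, with 109 and 101 RPM, while its long share went from 1.17% to 3.33% and was called higher. Striated muscle miRNAs had 8 and 12 long reads in all and none was tested.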

How the data were processed

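Total RNA of 3 boars per age was pooled, RNA of 18 to 30 nucleotides was taken from a gel, and sequencing on an Illumina instrument followed 15 cycles of PCR, per the labels' protocols. For each library the authors deposited the read count of every tag matched to a miRNA entry of any species, with 0 to 2 mismatches; counts were used as deposited. Lengths, matched, mismatched and unmatched bases are the authors' deposited columns, and their deposited score was not used. Not given in the sources used here are the aligner, the genome build and the miRBase release. A check of ungapped placements found that 27.8% of the 30-day and 26.8% of the 180-day long tags have match numbers that only a gapped placement gives.

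Names without species prefix were merged when their entries were identical over 17 or more overlapping bases with a shift of at most 3, unless 1 species lists both (1408 names gave 1338 miRNAs). Tags kept their deposited name, and let-7 was read as let-7a. RPM were computed over the 7525725 and 852209 miRNA-matched reads. One read was worth 0.133 RPM at 30 days and 1.17 at 180 days. Ratios have exact conditional 95% intervals, shares exact Clopper-Pearson intervals. A call needed a ratio of 2 or more, or 0.5 or less, and an interval that excluded 1; the call on a long share used the exact interval of the odds ratio. Where a library had 0 reads, 3 reads were the floor. miRNAs were tested with 20 or more long reads over both libraries.

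The miRNAs named were the 10 with most long reads in each library, those with the 5 largest and 5 smallest ratios given 100 or more long reads, and the 5 largest long shares in each library. Others, and the printed sequences beyond the most read tags (those of miR-30d are not printed), were chosen after their values were seen. Members and lists were chosen with earlier results of these data known. Python 3.11.15, SciPy 1.17.1, pandas 2.3.3 and, for TMM factors, edgeR 4.0.16 were used, and the intervals were tested on simulated data. Alternatives changed the scale, length window, mismatches, read minimum, grouping of names and tags kept.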

Additional observations from a re-analysis of the deposited data

How the results depend on the processing

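The number of miRNA-matched reads limits the 180-day library most, where 1 read is worth 1.17 RPM. No paired analysis was possible because each age had 1 library. Whole-library totals, the lowest that the tag numbers allow, turned the ratio of long shares from 2.12 to 0.254 (1.10 with TMM, 1.07 with median-of-ratios factors), and turned miR-30d to 0.343, miR-103 to 0.338, miR-140* to 0.298, miR-191 to 0.528, miR-30e-5p to 0.548, let-7a to 0.295, miR-1826 to 0.494 and miR-1763 to 0.448. The 55 miRNAs called higher became 14 with those totals, 34 with TMM, 32 with median-of-ratios factors, 120 with a minimum of 1 read and 27 with 100. The 1 called lower became 73 with whole-library totals, 14 with TMM, 17 with median-of-ratios factors, 2 without tags of 1 read, and 0 with mammalian entries only. Of the long shares, 19 in place of 33 were higher with a minimum of 100 reads, and 0 in place of 1 lower with that minimum or at 26 to 30 nucleotides.

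Settings chosen after seeing the data applied 2 exclusions to the makeup and ends of the tags. Without tags of 1 read, T began 40.1% of the 30-day long reads, GAAC closed 19.0% at 30 days and 16.3% at 180 days, and tails of A and T made up 51.4% and 46.2%. Without the most read tag of either library in both, T began 41.6% and 48.3%, mammalian prefixes held 77.4% at 30 days, GAAC closed 20.6% and 15.9%, and tails of A and T made up 36.4% and 33.6%. Leaving out tags that end in GAAC, also chosen later, changed the call of none of the named miRNAs. The cause of the other changes was not tested.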
